A study of Mus musculus with 49 samples.

Results

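The genes described here are 9 members of the fibroblast growth factor (FGF) pathway: the ligand genes Fgf7, Fgf9 and Fgf10, the receptor genes Fgfr1 and Fgfr2, the feedback inhibitor genes Spry2 and Dusp6, and the target transcription factor genes Etv4 and Etv5. They were chosen by symbol from a table of 13093 genes, and all 9 were in it, each on 1 row. The values come from 49 single cells of the metanephric mesenchyme of mouse embryos at 11.5 days post coitum (Theiler stage 19), all carrying the transgene Tg(Crym-EGFP)82Gsat on a mixed background, with both sexes included and no other genotype or treatment. EGFP under Crym control guided the dissection, which also took some cells outside the labelled zone, so the cells are not a sorted population. Since the embryo or litter of a cell is not in the labels, all 49 cells are treated as 1 sample, and no p-value is given.

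FGF ligands are secreted proteins that bind receptor tyrosine kinases with the help of heparan sulphate, and the receptors signal through the RAS and ERK kinases. The signal switches on genes that dampen it, among them the sprouty gene Spry2 and Dusp6, a phosphatase that acts on ERK, and it raises the ETS factors Etv4 and Etv5. In the early kidney, FGF signals are known to keep nephron progenitors alive and, with Gdnf and its receptor Ret, to promote growth and branching of the ureteric bud; Etv4 and Etv5 also act downstream of Ret in the bud tip. Values are RPKM, reads scaled to gene length and library size, so levels of different genes are compared per length, and a gene is called found in a cell at 1 RPKM or more.

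The status of a cell was read from Six2, a transcription factor gene that holds nephron progenitors in their state, and Foxd1, a transcription factor of the renal stroma, each at 1 RPKM or more. There were 18 cells with Six2 only, 9 with both genes, 15 with Foxd1 only and 7 with neither. Marker lists were counted without these 2 genes. Of the other 9 nephron progenitor markers a median of 7 was found in Six2-only cells and 3 in Foxd1-only cells, where Cited1 and Spock2 were found in no cell. Of the other 9 stroma markers the medians were 2.5 and 8. Since cells form 1 sample, differences between classes describe these cells, and shares carry a 95% interval (exact binomial, Clopper-Pearson) for counting error alone. Whether a low value means less RNA or a transcript lost in capture cannot be told apart.

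Some cells stood apart from the rest. Relative read depth, taken from the spacing of low values, was 0.0346 of the median cell in cell 3 and 0.0462 in cell 7, against 0.693 to 1.52 in the other 47. The smallest non-zero value of a gene, scaled to depth, is its step, the value of 1 read if whole reads were counted. In these 2 cells the step passes 1 RPKM for 7 of the 9 members, all but Fgf10 and Fgfr2. For Fgf10 and Fgfr2 only 3 of 33 and 8 of 45 non-zero values were whole multiples of the step. Their step may thus be less than 1 read, and a single read could pass 1 RPKM for them too. Cell 25, a Foxd1-only cell, held 11 of 12 ureteric bud markers, with Ret at 59.6 RPKM, and also 9 of 10 stroma markers, Foxd1 included. Cell 27, a cell with neither gene, held all 8 endothelial markers in the table. The number of genes found per cell was also uneven, with medians of 4960.5 in Six2-only cells, 5670 in cells with both, 5232 in Foxd1-only cells and 4246 in cells with neither.

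A median of 5 of the 9 genes was found per cell, from 1 to 8. The median was 6 in Six2-only cells, 7 in cells with both, 4 in Foxd1-only cells and 3 in cells with neither. In descending order of the number of cells, Spry2 was found in 46, Fgfr1 in 44, Dusp6 in 40, Fgfr2 in 32, Etv5 in 31, Fgf10 in 25, Etv4 in 15, Fgf9 in 8 and Fgf7 in 3. The intervals of neighbours in this order overlapped throughout. Of all 13093 genes, 34.8% were found in 25 or more cells and 15.4% in 40 or more.

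**Figure D1:**
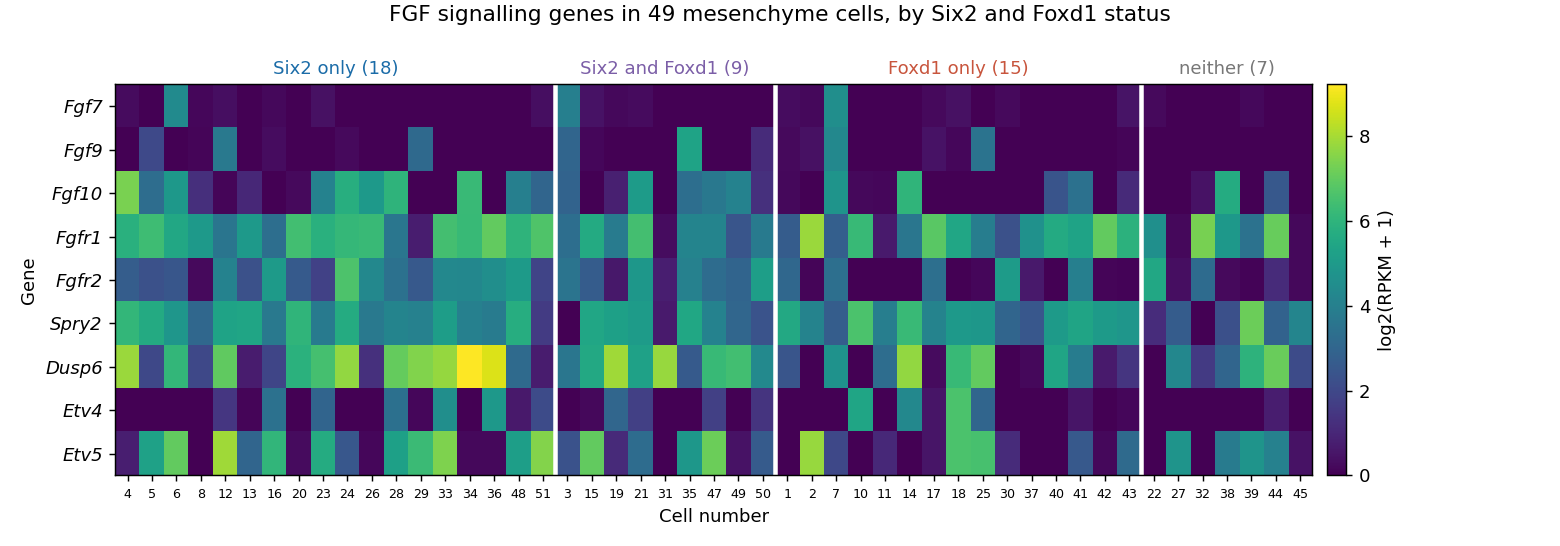
Level of each of the 9 genes, as log2(RPKM + 1) in colour, in each of the 49 cells (columns, by cell number), with cells set in 4 blocks by Six2 and Foxd1 status. Fgfr1, Spry2 and Dusp6 are seen in most columns, Fgfr2 is dark in most Foxd1-only columns, and Fgf7 is bright in 3 columns only, cells 3, 6 and 7.

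The share of cells with a member was compared between Six2-only and Foxd1-only cells, the classes that hold 1 regulator each. A difference of 25 percentage points or more was reached by 3 of the 9 genes, Fgfr2, Fgf10 and Dusp6, all found in a larger share of Six2-only cells, and by none in the other direction. Of all 13093 genes, 12.1% differed by this much in either direction, 5.8% with the larger share in Six2-only cells and 6.3% with the smaller. Among the 8950 genes found in 5 to 44 cells the figures were 17.6%, 8.48% and 9.12%. The median difference over the 9 genes was 12.2 points, against 0 over all genes.

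**Figure D2:**
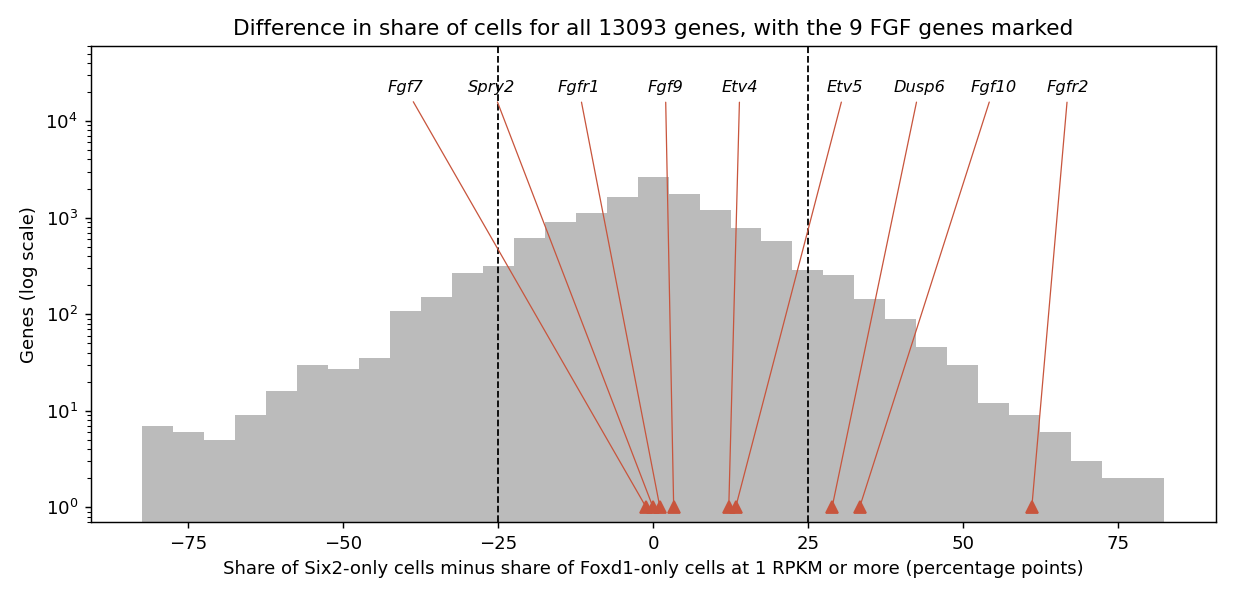
Histogram of the difference in share of cells (Six2-only minus Foxd1-only, percentage points, x axis) for all 13093 genes, with the number of genes on a log scale; dashed lines mark 25 points and triangles mark the 9 genes. Fgfr2 at 61.1 points, Fgf10 at 33.3 and Dusp6 at 28.9 lie beyond the upper line and the other 6 between the lines.

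Sequences before the annotated start are shown for these 3 genes, because they are the members whose detection differed most between the classes. Each is the 250 bases that precede the RefSeq start in GRCm38.p6, on the strand of the gene, 5′ to 3′, and capitals mark the ETS core CAGGAA. For Fgfr2 on the minus strand (chr7:130266809-130267058) the start is that of RefSeq, and 26 of 27 GENCODE transcripts of the gene start 545 or more bases downstream of it, with none starting in the window. The Fgf10 window (chr13:118714449-118714698) and the Dusp6 window (chr10:99262981-99263230) are on the plus strand.
Fgfr2: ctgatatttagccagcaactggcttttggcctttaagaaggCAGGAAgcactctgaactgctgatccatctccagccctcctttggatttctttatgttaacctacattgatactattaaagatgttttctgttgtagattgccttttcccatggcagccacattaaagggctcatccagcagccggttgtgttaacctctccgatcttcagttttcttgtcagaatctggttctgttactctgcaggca
Fgf10: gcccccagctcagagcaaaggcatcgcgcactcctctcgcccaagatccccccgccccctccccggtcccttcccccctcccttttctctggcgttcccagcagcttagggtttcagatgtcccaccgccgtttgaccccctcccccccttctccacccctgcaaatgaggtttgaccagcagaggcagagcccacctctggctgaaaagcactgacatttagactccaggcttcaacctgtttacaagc
Dusp6: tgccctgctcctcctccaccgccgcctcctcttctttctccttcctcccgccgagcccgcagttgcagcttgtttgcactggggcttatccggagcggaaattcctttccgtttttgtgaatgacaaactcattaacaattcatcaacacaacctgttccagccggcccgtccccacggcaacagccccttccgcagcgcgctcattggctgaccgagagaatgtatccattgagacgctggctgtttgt
ETS factors, the family of Etv4 and Etv5, bind sites with a GGAA centre, and 2 forms of it, CCGGAA and CAGGAA, were searched on both strands, along with TCAGGTTTC, a site form bound by the family of Six2. Windows were available for 7 of the 9 members, not for Fgfr1 and Etv4, and Etv5 had 2. CAGGAA was present in the windows of Fgfr2 and Spry2 and in 1 of the 2 windows of Etv5. Either ETS form was present in 35.1% of all 32851 windows of this length. TCAGGTTTC was present in 0.387% of windows and in none of the members'. These are matches of letters in a short window and no measure of binding.

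Fgfr2, on chromosome 7 (gene ID 14183; 137305965 to 137410322 in mm9), encodes the receptor that, in its epithelial and mesenchymal splice forms, binds different FGFs; the values are per gene and do not separate the forms. In the 18 Six2-only cells Fgfr2 ranged from 0.19 to 99.3 RPKM with a median of 7.81, and in the 9 cells with both genes from 0.503 to 35.3 with a median of 8.52. In the 15 Foxd1-only cells it ranged from 0 to 32.4 RPKM with a median of 0.0802. Only 1 Six2-only cell was below 1 RPKM, whereas 10 of the 15 Foxd1-only cells were. The remaining 5, cells 1, 7, 17, 30 and 41, stood at 7.51, 9.26, 9.28, 32.4 and 14.7 RPKM, cell 7 being shallow. These cells and cell 37, at 0.552 RPKM, lay within the Six2-only range. Fgfr2 was thus found in 17 of 18 Six2-only cells (94.4%, interval 72.7 to 99.9%) and in 5 of 15 Foxd1-only cells (33.3%, interval 11.8 to 61.6%). The difference was 61.1 points, and 0.145% of all genes, and 0.212% of those found in 5 to 44 cells, reached 60 points or more in this direction. The difference was 31.1 points at a threshold of 10 RPKM (8 of 18 against 2 of 15 cells), 53.3 at 0.1 RPKM and 65.9 without the shallow cells. On the scale of mean log2(RPKM + 1), Six2-only cells averaged 3.36 ± 1.53 (SD over cells) and Foxd1-only cells 1.33 ± 1.84, a difference of 2.03. In cells with neither gene Fgfr2 was found in 3 of 7, with a median of 0.273 RPKM.

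Fgfr1 (gene ID 14182; chromosome 8, 26629244 to 26686186), the other main FGF receptor of kidney mesenchyme, showed no such split. It was found in 44 of 49 cells (89.8%, interval 77.8 to 96.6%), was above 0 in every cell, and had a median of 31.0 RPKM over all cells, against 5.05 for Fgfr2. Six2-only cells ranged from 0.664 to 128 RPKM with a median of 60.02. Foxd1-only cells ranged from 0.584 to 227 RPKM with a median of 39.8, so the ranges overlapped almost entirely. The highest value, 227 RPKM, was in cell 2, a Foxd1-only cell, and cells with both genes had the lowest class median, 13.4 RPKM. The share with Fgfr1 was 94.4% in Six2-only and 93.3% in Foxd1-only cells.

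Both receptor genes were found together in 31 cells, of which 16 were Six2-only, 7 had both regulators, 5 were Foxd1-only and 3 had neither. Fgfr1 without Fgfr2 was found in 13 cells, 9 of them Foxd1-only and 1 Six2-only. Fgfr2 without Fgfr1 was found in cell 29 alone, at 4.94 RPKM. Neither receptor reached 1 RPKM in cells 11, 27, 31 and 45, where Fgfr1 stood at 0.584, 0.154, 0.233 and 0.137 RPKM. Dusp6 was found in all 4, at 8.86, 18.4, 220 and 3.30 RPKM, and in 40 of all 49 cells. Across the 49 cells the levels of the 2 receptor genes had a Spearman correlation of 0.07.

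Among ligands Fgf10 was the most widely found, and it was found in a larger share of Six2-only cells. Fgf10 (gene ID 14165; chromosome 13, 119503506 to 119581380) is a mesenchymal ligand of the epithelial form of Fgfr2. It was found in 25 of 49 cells (51.0%, interval 36.3 to 65.6%), listed at 0 in 16, and reached 163 RPKM in cell 4. Six2-only cells ranged from 0 to 163 RPKM with a median of 7.93, and cells with both genes from 0 to 32.8 with a median of 6.69. Foxd1-only cells ranged from 0 to 65.0 RPKM with a median of 0.111, and cells with neither from 0 to 49.5 with a median of 0.0116. Each class thus held cells listed at 0 and at least 1 cell at 32.8 RPKM or more. The gene was found in 12 of 18 Six2-only cells (66.7%, interval 41.0 to 86.7%) and 5 of 15 Foxd1-only cells (33.3%, interval 11.8 to 61.6%). At a threshold of 0.1 RPKM the difference fell under 25 points, to 18.9. Of the 25 cells with Fgf10, 20 also had both receptor genes and 5 had Fgfr1 alone.

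Fgf9 (gene ID 14180; chromosome 14, 58691523 to 58731557), a ligand known to maintain nephron progenitors and made by the ureteric bud and by progenitors, was found in few cells. Its transcript was found in 8 of 49 cells (16.3%, interval 7.32 to 29.7%) and listed at 0 in 32. The values were 39.4 RPKM in cell 35, 18.7 in cell 7, 12.3 in cell 12, 10.5 in cell 25, 7.86 in cell 29, 7.15 in cell 3, 3.11 in cell 5 and 1.20 in cell 50. They were spread over 3 Six2-only cells, 3 with both genes and 2 Foxd1-only cells. Both Foxd1-only cells stand apart in other ways: cell 25 held ureteric bud markers beside stroma markers, and cell 7 is shallow. In the shallow cells 3 and 7 the values correspond to 2 and 7 of the smallest steps between values of this gene, a step being the value of 1 read if whole reads were counted, whereas cell 25 held 92 steps. Without cells 3 and 7 Fgf9 was found in 6 of 47 cells (12.8%). Whether Fgf9 in cell 25 came from the same cell as its Foxd1 was not tested.

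Fgf7 (gene ID 14178; chromosome 2, 125860394 to 125916921), a ligand made by mesenchyme and stroma in many organs, was found in 3 cells: cell 6 at 20.3 RPKM, cell 7 at 22.4 and cell 3 at 15.0. Cells 3 and 7 are the shallow libraries, where these values correspond to 3 and 6 steps, against 107 steps in cell 6. All 20 values of Fgf7 above 0 were whole multiples of the step within 0.01. Without the shallow cells Fgf7 was found in 1 of 47 cells, cell 6, a Six2-only cell that also had Fgf10 at 29.0 RPKM. A further 17 cells had Fgf7 between 0 and 1 RPKM. The share with Fgf7 was 5.56% of Six2-only cells and 6.67% of Foxd1-only cells.

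**Figure D3:**
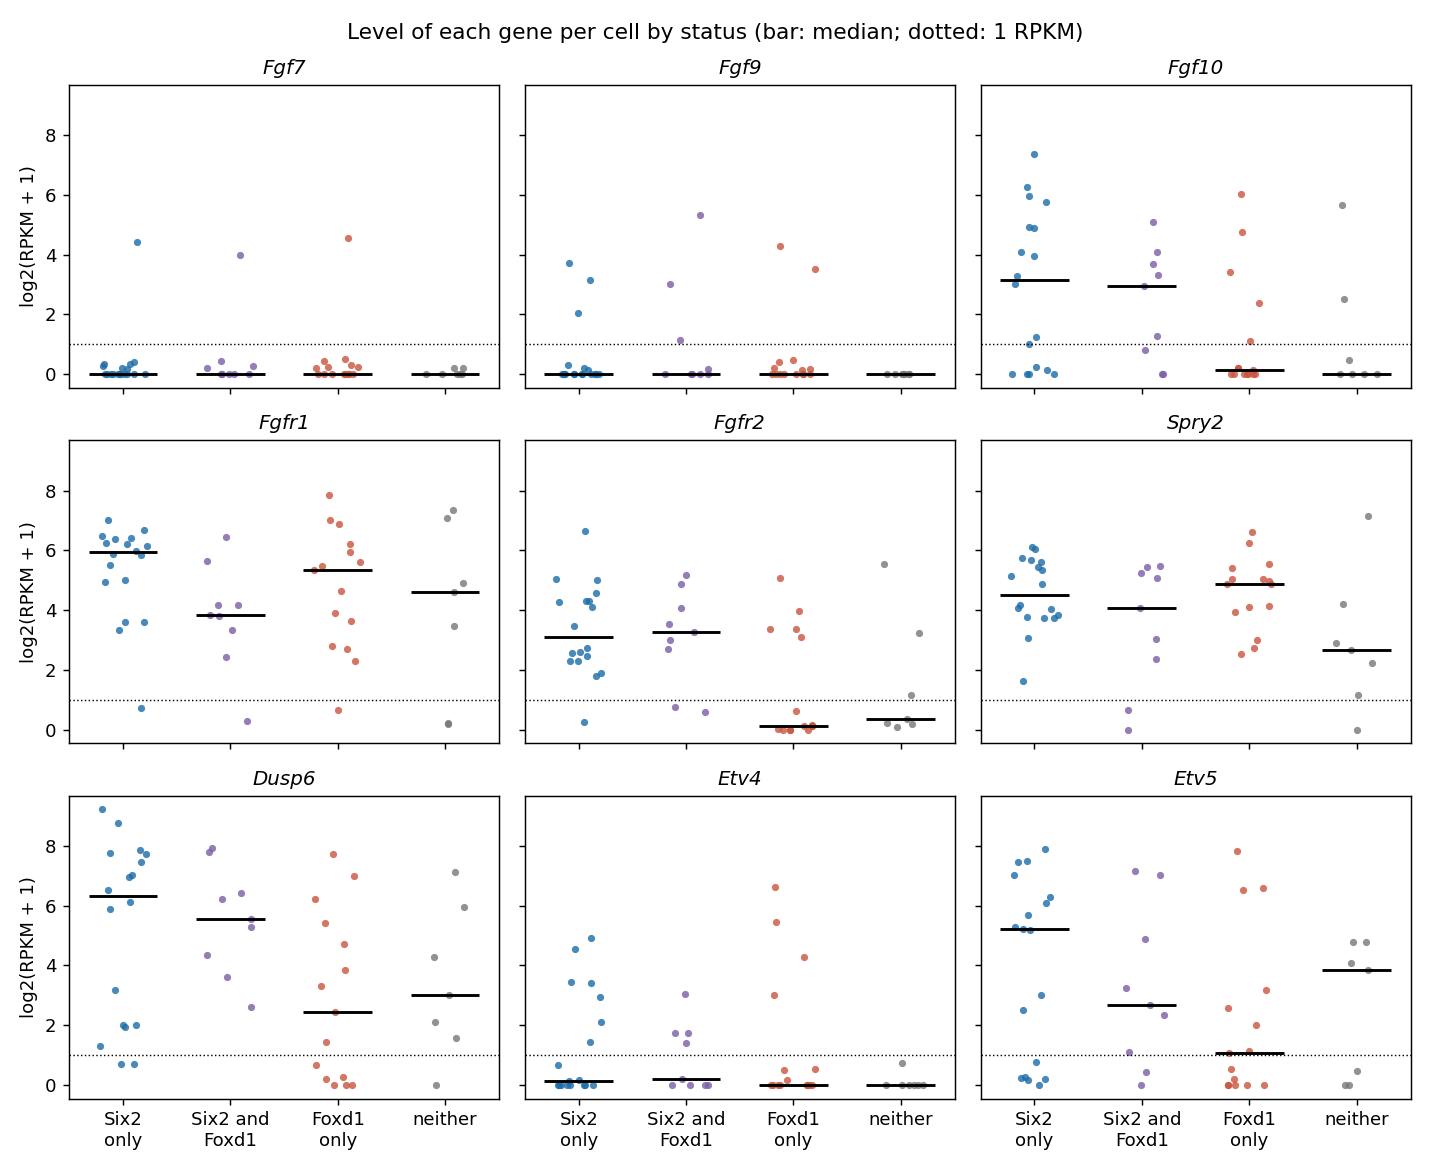
Level of each gene in each cell as log2(RPKM + 1) (y axis), by status (x axis): each point is a cell, each black bar a class median, and the dotted line is 1 RPKM. Fgfr2 medians are 7.81 and 8.52 RPKM in the classes with Six2 and 0.0802 in Foxd1-only cells, while Spry2 medians are 22.5 and 28.6 RPKM in Six2-only and Foxd1-only cells.

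Of the feedback inhibitor genes, Dusp6 (gene ID 67603; chromosome 10, 98725865 to 98730123) was found in a larger share of Six2-only than of Foxd1-only cells. It was found in 40 of 49 cells (81.6%, interval 68.0 to 91.2%), and its highest level, 596 RPKM in cell 34, was the highest of any member. Six2-only cells ranged from 0.613 to 596 RPKM with a median of 79.3, and cells with both genes from 5.13 to 240 with a median of 46.3. Foxd1-only cells ranged from 0 to 209 RPKM with a median of 4.41, and cells with neither from 0 to 138 with a median of 7.00. The ranges overlapped, since cells 14 and 25 of the Foxd1-only class held 209 and 127 RPKM while 2 Six2-only cells were under 1 RPKM. The share was 16 of 18 Six2-only cells (88.9%, interval 65.3 to 98.6%), 9 of 9 with both genes, 9 of 15 Foxd1-only cells (60%, interval 32.3 to 83.7%) and 6 of 7 with neither. Mean log2(RPKM + 1) was 5.17 ± 3.01 in Six2-only and 2.88 ± 2.78 in Foxd1-only cells, a difference of 2.29 and less than the SD within either class. The share difference of 28.9 points became 20 at 0.1 RPKM and 21.1 at 10 RPKM.

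Spry2 (gene ID 24064; chromosome 14, 106291164 to 106296036), which encodes an inhibitor of receptor tyrosine kinase signalling, was the most widely found member. It was found in 46 of 49 cells (93.9%, interval 83.1 to 98.7%), including all 18 Six2-only and all 15 Foxd1-only cells. Six2-only cells ranged from 2.05 to 67.8 RPKM with a median of 22.5. Foxd1-only cells ranged from 4.70 to 97.1 RPKM with a median of 28.6. The class means of log2(RPKM + 1) were 4.554 ± 1.20 and 4.603 ± 1.21. The highest value, 140 RPKM, was in cell 39, which had neither regulator. The 3 cells below 1 RPKM were cells 3, 31 and 32, the first of them shallow.

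The target genes Etv4 and Etv5 were less widely found than the inhibitors. Etv5 (gene ID 104156; chromosome 16, 22381386 to 22439643) was found in 31 of 49 cells (63.3%, interval 48.3 to 76.6%). Six2-only cells ranged from 0 to 240 RPKM with a median of 35.9, and cells with both genes from 0 to 140 with a median of 5.32. Foxd1-only cells ranged from 0 to 224 RPKM with a median of 1.09, and cells with neither from 0 to 26.5 with a median of 13.2. High cells were present in 3 classes, with cell 12 at 240 RPKM (Six2-only), cell 2 at 224 (Foxd1-only) and cell 47 at 140 (both genes). The share was 66.7% of Six2-only and 53.3% of Foxd1-only cells, a difference of 13.3 points that passed 25 at the lowest and highest thresholds, with 27.8 points at 0.1 RPKM and 35.6 at 10 RPKM. Mean log2(RPKM + 1) was 3.93 ± 3.00 and 2.11 ± 2.73, a difference of 1.82.

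Etv4 (gene ID 18612; chromosome 11, 101631056 to 101646624) was found in 15 of 49 cells (30.6%, interval 18.3 to 45.4%) and listed at 0 in 26. By class, Etv4 was found in 7 of 18 Six2-only cells at up to 29.4 RPKM, in 4 of 9 with both genes at up to 7.24, in 4 of 15 Foxd1-only cells at up to 97.0 and in 0 of 7 with neither. The highest values were 97.0 RPKM in cell 18 and 42.3 in cell 10, both Foxd1-only cells, and 29.4 in cell 36, a Six2-only cell. The 3 highest cells held 63.8% of the summed RPKM of Etv4. Of the 15 cells with Etv4, 12 also had Etv5. Cell 25, with both ureteric bud and stroma markers, had Etv4 at 7.01, Etv5 at 91.2 and Dusp6 at 127 RPKM. The bud receptor gene Ret was found in cell 25 alone and so not in cell 18, which held Etv5 at 96.2 RPKM beside its Etv4.

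**Figure D4:**
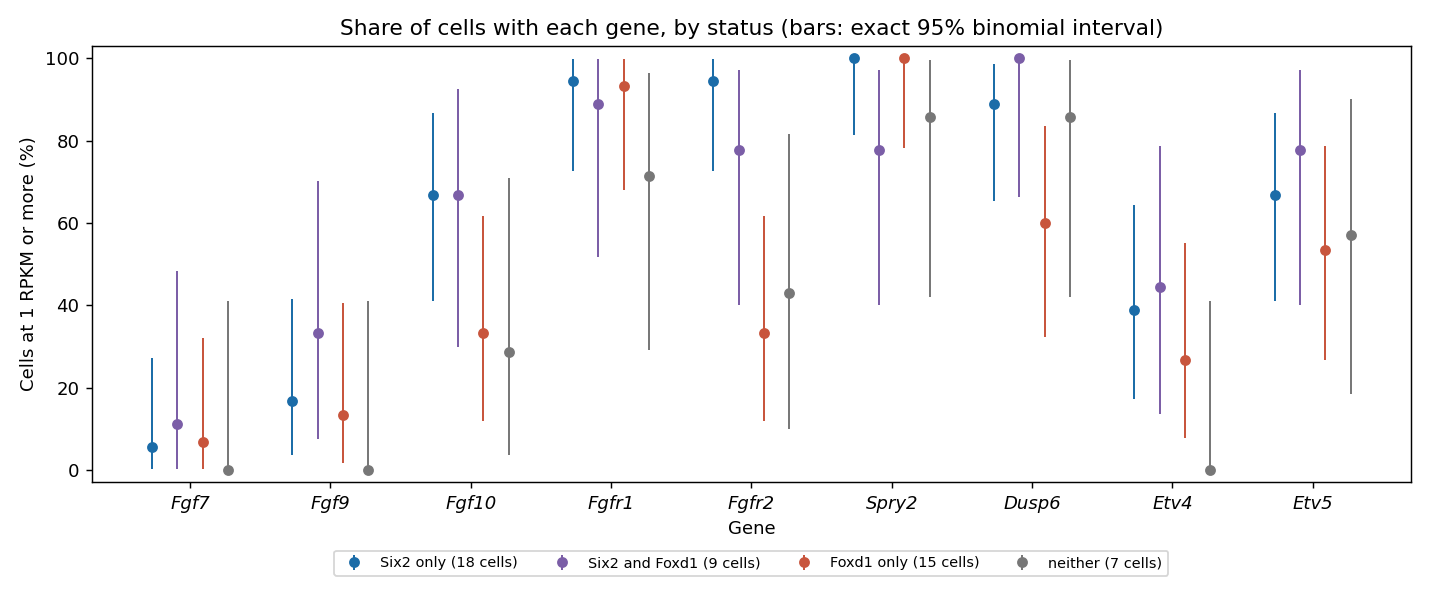
Percent of cells at 1 RPKM or more (y axis) for each gene (x axis) in the 4 status classes; points are shares and bars are exact 95% binomial intervals. For Fgfr2 the Six2-only interval is 72.7 to 99.9% and the Foxd1-only interval 11.8 to 61.6%. The bars show counting error alone, since cells are not replicates, and overlap of intervals was not counted over all genes.

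By the difference of mean log2(RPKM + 1), 4 of the 9 genes were higher by 1 or more in Six2-only cells, Fgfr2, Fgf10, Dusp6 and Etv5, and none lower, where 8.75% of all genes were higher by this much, 7.78% lower and 16.5% either. Among genes found in 5 to 44 cells the figures were 11.3%, 10.5% and 21.8%. The summed level of the 12 ureteric bud markers had a median of 0.232 RPKM in Six2-only cells (0 to 163) and 2.44 in Foxd1-only cells (0 to 833, the highest in cell 25). Of the 12, 7 were found in no Six2-only cell, and 1, Krt19, in no Foxd1-only cell. Cell 25 alone held 11 of the 12, and no such count was made without it. The median number of bud markers found per cell was 0 in Six2-only and 1 in Foxd1-only cells. The 9 dissociation stress genes summed to a median of 62.9 RPKM in Six2-only cells (0.574 to 316) and 34.8 in Foxd1-only cells (0.654 to 614). Their part in the differences was not tested. Without cells 25 and 27 the 3 genes past 25 points were again Fgfr2, Fgf10 and Dusp6.

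Across single cells the 9 genes had low correlations with each other, above 0 in 25 of 36 pairs. In 28 of the pairs both genes were found together in more cells than the product of their counts over 49. Pairs of other genes were not counted, so neither count can be read as particular to these genes. Over the 36 pairs the median Spearman correlation was 0.07, from -0.17 to 0.37, across the 49 cells, which share tissue, protocol and sequencing lane. The highest was that of Etv4 with Etv5 at 0.37, which was 0.33 given the number of genes found per cell. Dusp6 correlated at 0.28 with Etv4, 0.19 with Spry2 and 0.16 with Etv5. At least 1 of the 4 inhibitor and target genes was found in every cell, and all 4 in 11 cells. The median was 3 of 4 both in the 31 cells with both receptor genes and in the 13 with Fgfr1 alone. Median Dusp6 was 25.2 RPKM in the former and 7.00 in the latter, while median Spry2 was 16.6 and 30.2.

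The genes most like each member across the 49 cells, among 8421 genes found in 10 or more cells, reached Spearman correlations of at most 0.60. For Dusp6 they were Enc1 at 0.60, Zfp503 at 0.55 and Srgap1 at 0.50. For Fgfr2 they were Eprs at 0.58, Ccdc18 at 0.55 and Crym, the gene whose regulation drives the reporter, at 0.53. For Fgfr1 they were Fubp3 at 0.58, Ank3 at 0.50 and Ppp3r1 at 0.48, and for Fgf10 Atl2 at 0.52, 2700081O15Rik at 0.51 and Hspa2 at 0.50. For Spry2 they were Apba3 at 0.55, Usp19 at 0.52 and Spg21 at 0.51. For Etv4 they were Mkks at 0.58, Sema3c at 0.57 and Dag1 at 0.54, and for Etv5 E330009J07Rik at 0.59, Csda at 0.54 and Pno1 at 0.52. No other FGF pathway gene was among these, but so few genes were named out of 8421 that their absence carries no information. The correlations are the largest out of 8421 genes over 49 cells. How large such values become for unrelated genes was not tested, so no gene named here, Crym included, can be read as tied to its member.

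A wider list of 106 FGF pathway symbols placed the 9 genes among their relatives, and 89 were in the table. Beyond the members, 9 further ligand genes were in the table, each found in 1 or 2 cells, some of them the shallow cells or cell 25: Fgf1, Fgf8, Fgf18 and Fgf20 in 2 cells, and Fgf2, Fgf12, Fgf13, Fgf17 and Fgf21 in 1. Of all genes, 18.2% were found in 3 or fewer cells. Fgf20, a progenitor ligand, stood at 46.5 RPKM in cell 25, which held bud and stroma markers, and at 7.96 in the shallow cell 7. Cell 7 was also the only cell with Fgf17 and 1 of the 2 with Fgf1, and cell 25 the only cell with Fgf12 and 1 of the 2 with Fgf18. Among receptors Fgfr3 was found in 11 cells, with 52.8 RPKM as its highest value. Fgfrl1, which lacks the kinase domain, was found in 7 and reached 157 RPKM in cell 45. Neither differed by 25 points between the classes: Fgfrl1 was found in 4 of 18 Six2-only and 0 of 15 Foxd1-only cells, and Fgfr3 in 3 of 18 and 5 of 15.

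Of the 20 heparan sulphate and co-receptor genes measured, 7 were found in 25 or more cells, and of the 25 adaptor and kinase genes 14. The most widely found are named here. The glypican genes Gpc3, Gpc1 and Gpc6 were found in 49, 46 and 42 cells, the syndecan gene Sdc4 in 44 and the extracellular sulphatase gene Sulf2 in 42. Of the signal relay genes, Nras was found in 49 cells, Crk in 44 and Braf in 43. Of the 13 feedback inhibitor genes beside Spry2 and Dusp6, none reached 25 cells: Dusp7 was found in 21, Spry4 in 18, Cbl in 16, Il17rd in 15 and Spred2 in 14. Among the 11 other target factor genes Myc was found in 25 cells, Elk4 in 24, Mycn in 23, Elk3 in 21 and Ets2 in 20.

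**Figure D5:**
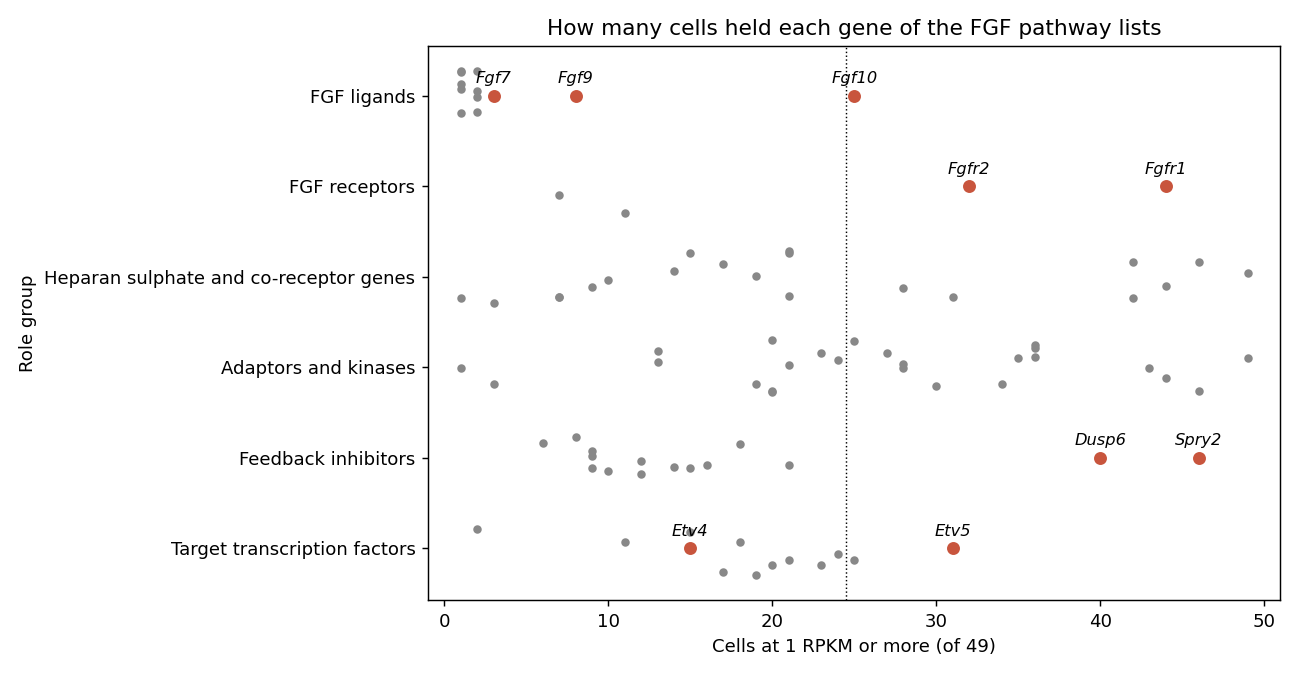
Number of the 49 cells in which each of the 89 pathway genes was at 1 RPKM or more (x axis), by role group (y axis); red points are the 9 members, grey points the other 80 genes, and the dotted line lies just under 25 cells. Fgf10 is the only ligand gene right of the line, and Spry2 and Dusp6 lie above all other feedback inhibitors.

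Of these 80 other pathway genes, 4 were found in a larger share of Six2-only cells by 25 points or more and 8 in a larger share of Foxd1-only cells. These are 5% and 10% of the 80, against 5.8% and 6.3% of all genes, so the first share is near that of all genes. Among genes found in 5 to 44 cells, a range to which the 80 were not limited, the figures were 8.48% and 9.12%. The second share is near the latter. The 4 were Myc (14 of 18 against 3 of 15 cells), Sulf2 (18 against 10), the phosphatase gene Dusp4 (6 against 1) and the ubiquitin ligase gene Cbl (7 against 2). The 8 were led by Flrt2, a transmembrane protein gene of a family that binds FGF receptors, found in 0 of 18 Six2-only and 11 of 15 Foxd1-only cells, and Pik3r1, a regulatory subunit gene of PI3 kinase, found in 2 and 10. The others were Elk3 (4 against 9), Ext2 (3 against 7), Spred3 (2 against 6), Spred1 (1 against 5), Shc1 (12 against 14) and Frs2, the adaptor gene of FGF receptors (5 against 8). Some of these were named after their values were seen. Flrt2 was found in 6 of the 9 cells with both regulators.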

How the data were processed

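RNA from 49 single cells was analysed as 1 group. Per the labels' protocols, cells were captured on a Fluidigm C1 chip, amplified with SMARTer chemistry, made into Nextera XT libraries and sequenced on a HiSeq2500; there are no molecular identifiers or strand information. The authors deposited RPKM values; per the file headers and values, the table keeps genes above 3 RPKM in at least 1 cell; the deposited counts of cells above 3 RPKM per gene matched the values in 13093 of 13093 genes. The submitters' processing notes name TopHat 1.4.1, DESeq and mm9, with no role; the read counter and annotation were not given in the sources used here. Total reads are unknown. Relative depth came from the densest window (2e-05 in natural log) of RPKM ratios to cell 1 among genes below 8 RPKM, and was tested on simulated data together with the share difference. Columns were matched by cell number, and 0 columns of values were left unused. Gene coordinates are the table's, with mm9 taken as the build.

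Python 3.11.15, numpy 2.4.6, pandas 2.3.3 and scipy 1.17.1 were used. A gene was found at 1 RPKM or more, status used the same threshold, and the log scale had a pseudocount of 1. No cell was filtered and no doublet caller was run; the submitters inspected chambers by microscope. With 1 sample there was no test: a difference of 25 points, or of 1 in mean log2(RPKM + 1), was set against the percent of all genes past it. Named were the 9 members, all ligand and receptor genes, up to 5 other genes per role found in most cells, and the 3 genes most like each member found in 10 or more cells. The members and lists were chosen with earlier results of these data known. Promoter windows are RefSeq's in GRCm38.p6. The alternatives were other thresholds, status at 5 RPKM, another pseudocount, low values set to 0, and cells left out.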

Additional observations from a re-analysis of the deposited data

How the results depend on the processing

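Of 108 values under alternative settings, 92 stayed within their allowance and 16 moved. The allowance was the counting interval, the spread over cells or over gene pairs, or 1.5 times the original count or percent. For log2 differences it was the SD over cells, which is wide, so all 36 of them stayed within it. That of Fgfr2 stayed although it went from 2.03 to 3.65 with a pseudocount of 0.1. No difference past a size rule changed sign, but small ones did. The log2 difference changed sign in 5 cases: without the shallow cells for Fgf7 (-0.09 to 0.21) and Fgf9 (-0.08 to 0.18), with status at 5 RPKM for Spry2 (-0.05 to 0.24) and Etv4 (-0.05 to 0.20), and with a pseudocount of 0.1 for Etv4 (0.20). The share difference changed sign in 5 cases: for Fgf9 from 3.33 points to -12.2 at 0.1 RPKM, -7.78 at 10 RPKM and -0.83 with status at 5 RPKM, for Etv4 from 12.2 to -8.89 at 10 RPKM, and for Fgf7 from -1.11 to 5.56 without the shallow cells. The cause was not tested. The moves came from the detection threshold and from the size rule. The median number of members found per cell went from 5 to 7 at 0.1 RPKM and to 3 at 10 RPKM. The number of members past the size rule went from 3 to 1, Fgfr2, at 40 points, a size that 2.82% of all genes passed. That number stayed at 3 at 10 RPKM, with Etv5 in place of Dusp6, and was 2 at 0.1 RPKM, Fgfr2 and Etv5. A threshold scaled to depth, chosen after seeing the data, kept Fgfr2, Fgf10 and Dusp6. Shares of single genes left their interval at 0.1 RPKM for 6 of 9 genes, with Fgf7 going from 6.12 to 40.8%, and at 10 RPKM for 7 of 9. Depth limits Fgf7 most, since 2 of its 3 cells were shallow. No paired analysis was possible because the cells form 1 group.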

Other observations

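The inhibitor genes Spry2 and Dusp6 were set beside 2 other genes, Fos and Gdnf, across the cells. Spry2 tended to be higher in cells with the immediate early gene Fos. Spry2 was found in all 19 cells with Fos, at 2.05 to 140 RPKM with a median of 32.4, and in 27 of the other 30, at 0 to 50.1 RPKM with a median of 15.8. The Spearman correlation of Spry2 with Fos was 0.48 over the 49 cells, 0.50 without the shallow cells and 0.47 given the number of genes found. For Dusp6 with Fos it was 0.00, with medians of 25.2 RPKM in cells with Fos and 18.8 in the others. The cells were dissociated with trypsin, and a part of that step in the Fos levels was not tested.

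Both tended to be higher in cells with Gdnf, the ligand of Ret. Dusp6 was found in all 16 cells with Gdnf, at 3.00 to 596 RPKM with a median of 73.0, and in 24 of the other 33, at 0 to 430 RPKM with a median of 5.13. The correlation was 0.47 over the 49 cells and 0.45 given the number of genes found. For Dusp6 with Six2 it was 0.43. Spry2 was also found in all 16 cells with Gdnf, with medians of 34.2 RPKM in these and 14.3 in the others and a correlation of 0.30. For Etv5 with Gdnf the correlation was 0.17. Differences between these correlations were not tested. These relations were picked after the values were seen, with no test. Spry4, another sprouty gene, reached its highest value of 267 RPKM in cell 27, the cell with all 8 endothelial markers, where both receptor genes were below 1 RPKM.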
